A study of Mus musculus with 15 samples.

Results

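Milk protein genes were followed through 15 RNA-seq libraries of mouse mammary glands and mammary tumors. The 8 genes (Csn1s1, Csn2, Csn1s2a, Csn1s2b, Csn3, Wap, Lalba and Glycam1) were taken by their symbols from the gene tables, and all 8 were found among 51826 genes. Trim24COE mice carry the Trim24LSL transgene, a FLAG-tagged mouse Trim24 cDNA behind a floxed stop cassette, together with MMTV-Cre (line D), which removes the stop in mammary epithelium. Of their tumors, 3 were labelled carcinosarcoma (64, 567 and 897) and 3 carcinoma (89, 273_5 and 3956). The 4 control glands (133, 392, 417_3 and 517_3) came from mice with MMTV-Cre alone. The 3 non-TRIM24 tumors (219, FVB001 and FVB002) arose spontaneously in mice that the study describes as not overexpressing TRIM24. Strain was given as FVB in the labels. The study made the transgene in FVB mice and bred control mice with FVB. Only for the non-TRIM24 tumors did it name either FVB or a mixed FVB background. Strain may therefore differ between these tumors and the other groups, and its part was not tested. The glands were described as age-matched, and the females of the aging colony as virgin. The labels give neither the age of single mice nor their estrous stage or reproductive history, and ages that the study lists for the mice with tumors of the transgene were not used here. The study's pathologists differed on the type of tumors 89, 567 and 3956, and the split into carcinosarcomas and carcinomas used here is that of the labels.

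Caseins carry most of the protein of mouse milk. The alpha, beta and gamma or delta caseins (Csn1s1, Csn2, Csn1s2a, Csn1s2b) bind calcium phosphate and are held in micelles by kappa casein (Csn3), while whey acidic protein (Wap) and alpha-lactalbumin (Lalba), the regulatory subunit of lactose synthase, belong to the whey. Glycam1 encodes a mucin-like glycoprotein of milk that is also made by the high endothelial venules of lymph nodes. In luminal alveolar cells these genes are switched on by prolactin through its receptor (Prlr), JAK2 and STAT5, with ELF5 and glucocorticoids, and they reach their full level at lactation, although some transcript is present in glands that have never lactated.

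Levels are given in TPM, transcript counts scaled to the same total in every library, which correct for transcript length, so different genes can be compared within a library. The TPM of all genes summed to 999999.1 to 1000000.6 per library, so these values carry no sequencing depth, and 13474 to 16908 genes were above 1 TPM. Control gland 133 and carcinoma 3956 each had a repeat library in the second sequencing batch, which also held all 3 non-TRIM24 tumors. Glands 417_3 and 517_3 were more alike (Spearman rho = 0.979 over 16775 genes) than both libraries of gland 133 (0.965) or of carcinoma 3956 (0.971), although the labels give them as different mice. Non-TRIM24 tumor FVB002 lay between tumors 219 and FVB001 in 1360 of the 1439 genes (94.5%) that differed at least 4-fold between those tumors and reached 10 TPM, against 47.5% to 70.1% for the other libraries. The 11 luminal epithelial, 9 basal and 10 adipocyte markers were all detected in the glands, where the summed adipocyte level ran from 1976.1 TPM in gland 417_3 to 46213.7 TPM in gland 392. Trim24 itself was at 14.5 to 22.4 TPM in the glands and at 10.6 to 24.1 TPM in the tumors labelled Trim24COE. The total Trim24 transcript thus did not separate glands from these tumors and gave no check of their labels. The non-TRIM24 tumors, all in the second batch, were lower, at 5.34 to 10.04 TPM. They lay below the first library of every gland and of every tumor labelled Trim24COE. By staining and qRT-PCR, the study reported higher TRIM24 in tumors of the transgene than in control glands. Directions below are those of the labelled groups.

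The 5 casein genes lie side by side on chromosome 5 (GRCm38, GENCODE M21), over 266458 bp at chr5:87666208-87932665. Csn1s1 (87666208 to 87682578), Csn1s2a (87774567 to 87788797), Csn1s2b (87808082 to 87824426) and Csn3 (87925579 to 87932665) are on the plus strand and Csn2 (87692624 to 87699630) on the minus strand. Wap (chr11:6635482-6638637), Lalba (chr15:98480400-98482721) and Glycam1 (chr15:103562759-103565081) are on minus strands elsewhere. Between the first and the last casein gene, 8 other genes are annotated, 2 of them protein-coding. Prr27 peaked at 4.0 TPM and the long noncoding RNA BC037156 at 3.07 TPM, both in tumor 219, and the antisense RNA Gm42794 at 1.48 TPM in gland 133. Odam reached 0.85 TPM, Gm7337 0.62 TPM, and Gm25066, Gm42845 and Gm24314 were listed at 0 in every library.

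RefSeq promoter windows (GRCm38.p6), from 250 bases before to 50 after the transcript start, were held for 6 of the 8 genes. Csn1s2b and Csn3 had none. The windows are shown because most of these genes were high or low in the same libraries and because STAT5 proteins are known to bind the palindrome TTCNNNGAA, which was found in 4 of the 6 windows and in 2726 of all 32851 windows (8.3%). In the lines below, 29 bases are printed 5′ to 3′ on the gene's strand, with the match in capitals.
Csn1s1 (chr5:87666098-87666126, plus strand): tttgtaacaaTTCTTAGAAtttatgtaaa
Csn2 (chr5:87699500-87699528, minus strand): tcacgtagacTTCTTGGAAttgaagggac
Csn1s2a (chr5:87774460-87774488, plus strand): ttatagtgctTTCTTAGAAttacaatgac
Glycam1 (chr15:103565208-103565236, minus strand): gccaactcatTTCCCAGAAacaccaattc
The match began at base -100 of Csn1s1, at base -93 of Csn2 and at base -145 of Glycam1, counted from the RefSeq start. In Csn1s2a it began at base 21, past the RefSeq start and before the start that GENCODE gives. In Csn2 the match lay before the RefSeq start but past the start that GENCODE gives, at 87699630 on the minus strand. Csn1s1 and Csn1s2a shared the same 9 letters. Wap and Lalba had no match in their windows, and the 150 bases before their starts are given for comparison with the casein promoters.
Wap (chr11:6638650-6638799, minus strand): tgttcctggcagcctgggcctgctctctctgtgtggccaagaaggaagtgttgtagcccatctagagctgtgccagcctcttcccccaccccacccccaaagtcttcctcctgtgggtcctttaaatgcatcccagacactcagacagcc
Lalba (chr15:98482684-98482833, minus strand): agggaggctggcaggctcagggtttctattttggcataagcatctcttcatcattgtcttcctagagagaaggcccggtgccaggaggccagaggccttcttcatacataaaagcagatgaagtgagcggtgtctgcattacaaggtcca
A match is a description of letters, and no binding was measured here.

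Milk protein RNA took a larger share of the transcriptome in every gland and every non-TRIM24 tumor than in any carcinosarcoma. The gap was narrow for gland 392, with 0.054% of all TPM against 0.043% in carcinosarcoma 567. The summed level of the 8 genes was 542.5 TPM in gland 392, 7566.2 TPM in gland 133, 9830.5 TPM in gland 417_3 and 10319.5 TPM in gland 517_3. Carcinosarcomas held 31.3 TPM (64), 64.8 TPM (897) and 430.3 TPM (567), all under the lowest gland. Carcinomas spread over the range of the glands, with 733.6 TPM in 3956, 4676.8 TPM in 273_5 and 5685.0 TPM in 89. Non-TRIM24 tumors had 2365.3 TPM (FVB001), 19657.3 TPM (FVB002) and 40101.1 TPM (219). In tumor 219 the 8 genes took 4.01% of all TPM, and Csn3 was the gene with rank 2 of the whole library, with Csn2 at rank 11 and Csn1s1 at rank 12. In carcinosarcoma 64 they took 0.00313%. In bulk tissue, fewer secretory cells and less milk protein RNA per cell cannot be told apart.

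**Figure D1:**
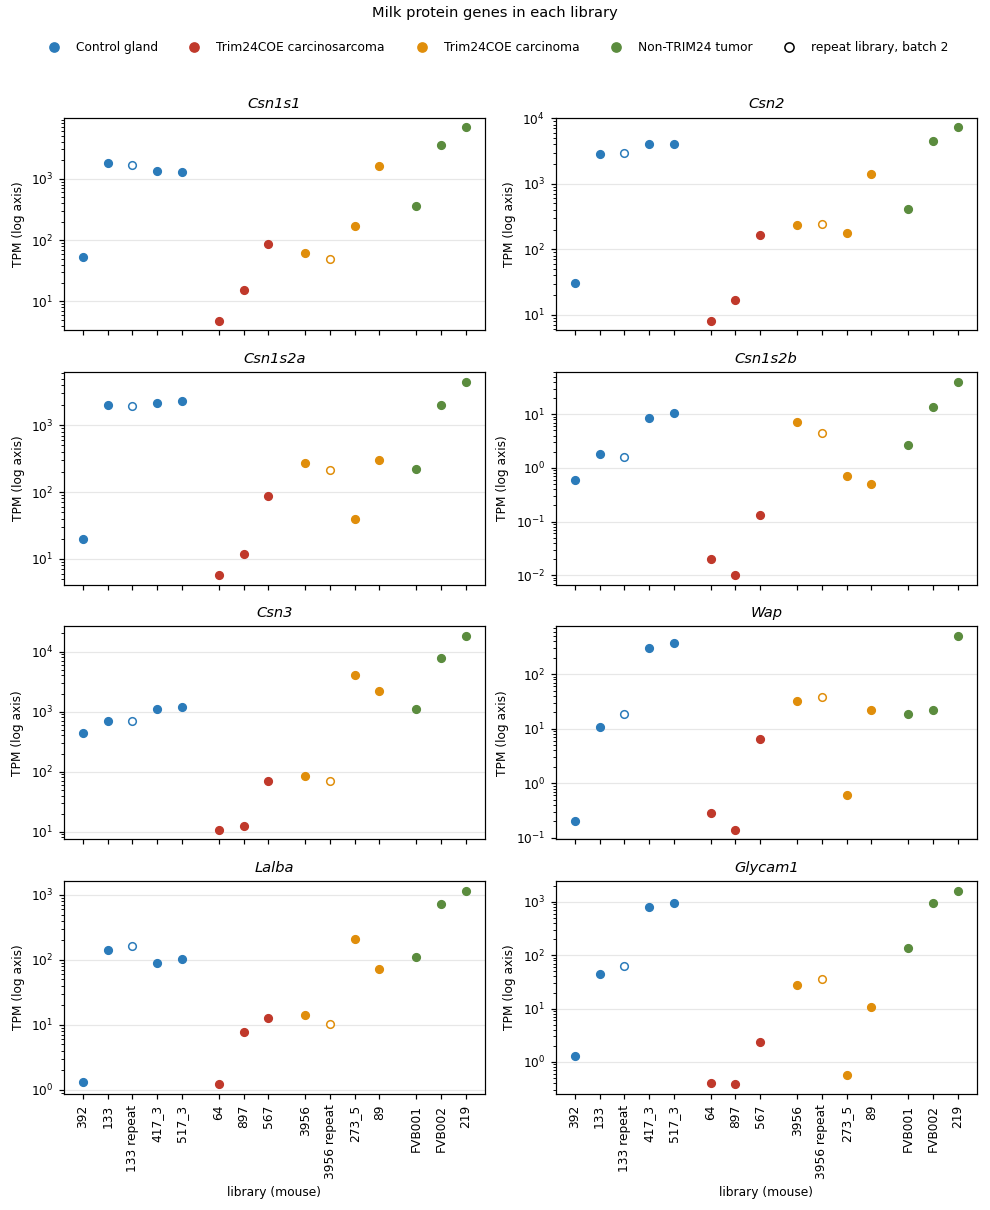
TPM of each of the 8 milk protein genes (log axes) in each of 15 libraries, coloured by group, with the repeat libraries of gland 133 and carcinoma 3956 as open circles. Gland 392 lies far below the other glands in every panel but Csn3 and Csn1s2b, the carcinosarcomas lie low throughout, and tumor 219 is the highest library in all 8 panels.

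Csn1s1, the alpha-S1 casein, was at 53.9 TPM in gland 392, 1795.8 TPM in 133, 1312.5 TPM in 417_3 and 1262.5 TPM in 517_3. In tumors it was at 4.85, 15.1 and 86.2 TPM in carcinosarcomas 64, 897 and 567, at 61.1, 173 and 1631.2 TPM in carcinomas 3956, 273_5 and 89, and at 362.7, 3506.0 and 6903.0 TPM in non-TRIM24 tumors FVB001, FVB002 and 219. Carcinoma 89 thus lay within the range of the glands, while the other carcinomas and carcinosarcoma 567 exceeded gland 392 and no other gland. Csn2, beta casein and the leading milk gene of 3 of the 4 glands, was at 30.3 TPM in gland 392 and at 2844.0, 4042.6 and 4111.9 TPM in 133, 417_3 and 517_3. Its tumor levels were 8.09, 17.0 and 165.2 TPM in carcinosarcomas 64, 897 and 567, 234.2, 178.5 and 1415.5 TPM in carcinomas 3956, 273_5 and 89, and 416.9, 4490.6 and 7301.4 TPM in FVB001, FVB002 and 219. All carcinomas lay above all carcinosarcomas, and among glands only 392 fell within the range of the tumors labelled Trim24COE.

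Csn1s2a, the first of a pair of alpha-S2-like caseins, was at 19.5 TPM in gland 392 and at 2032.1, 2150.8 and 2321.0 TPM in glands 133, 417_3 and 517_3. It was at 5.65, 11.7 and 88.5 TPM in carcinosarcomas 64, 897 and 567, at 270.8, 39.6 and 304.0 TPM in carcinomas 3956, 273_5 and 89, and at 221.0, 2046.9 and 4504.8 TPM in FVB001, FVB002 and 219. Csn1s2b, its neighbour, was the rarest of the 8 in 13 of the 15 libraries. It was at 0.59, 1.80, 8.65 and 10.6 TPM in glands 392, 133, 417_3 and 517_3, at 0.02, 0.01 and 0.13 TPM in carcinosarcomas 64, 897 and 567, at 7.15, 0.72 and 0.50 TPM in carcinomas 3956, 273_5 and 89, and at 2.7, 13.5 and 40.4 TPM in FVB001, FVB002 and 219. No carcinosarcoma reached the lowest gland. Carcinoma 3956, which had the least Csn1s1, Csn3 and Lalba of the 3 carcinomas, had the most Csn1s2b, and Csn1s2a was 37.9 times Csn1s2b there against 608 times in carcinoma 89.

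Csn3, the kappa casein that caps the micelle, differed least between glands. It was at 435.4 TPM in gland 392, 694.9 TPM in 133, 1103.0 TPM in 417_3 and 1183.3 TPM in 517_3, a range of 2.72-fold, whereas Csn2 ranged over 136-fold. The carcinosarcomas held 10.8 TPM (64), 12.6 TPM (897) and 69.0 TPM (567), all below every gland. Carcinomas held 85.8 TPM (3956), 2228.2 TPM (89) and 4071.8 TPM (273_5), and non-TRIM24 tumors 1096.0 TPM (FVB001), 7885.8 TPM (FVB002) and 18054.9 TPM (219). Carcinoma 3956 lay near carcinosarcoma 567 and below every gland, while 89 and 273_5 lay above every gland.

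Whey protein genes spanned several orders of magnitude. Wap was at 0.20 TPM in gland 392, 10.7 TPM in 133, 302.7 TPM in 417_3 and 366.6 TPM in 517_3. It was at 0.29, 0.14 and 6.45 TPM in carcinosarcomas 64, 897 and 567, at 32.8, 0.61 and 21.8 TPM in carcinomas 3956, 273_5 and 89, and at 18.3, 22.1 and 499.2 TPM in FVB001, FVB002 and 219. The 1833-fold range among glands was the widest of the 8 genes, and FVB002, rich in casein RNA, had about as little Wap as FVB001. Lalba was at 1.29 TPM in gland 392 and at 142.3, 88.9 and 103 TPM in 133, 417_3 and 517_3. It was at 1.21, 7.81 and 12.6 TPM in carcinosarcomas 64, 897 and 567, at 14.3, 212.1 and 73.4 TPM in carcinomas 3956, 273_5 and 89, and at 109.7, 732.3 and 1166.2 TPM in FVB001, FVB002 and 219. Every carcinosarcoma was thus below every carcinoma.

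Glycam1 separated glands 417_3 and 517_3, at 821.5 and 960.5 TPM, from glands 392 and 133, at 1.27 and 44.7 TPM. It was at 0.40, 0.38 and 2.32 TPM in carcinosarcomas 64, 897 and 567, at 27.5, 0.57 and 10.5 TPM in carcinomas 3956, 273_5 and 89, and at 138.0, 960.2 and 1631.3 TPM in FVB001, FVB002 and 219. All non-TRIM24 tumors exceeded all tumors labelled Trim24COE. Because lymph node venules also make Glycam1, their markers were read beside it. Chst4 was at 2.89 and 2.52 TPM and Madcam1 at 12.4 and 14.5 TPM in glands 417_3 and 517_3, against at most 0.13 and 1.87 TPM in the first libraries of the other glands and all tumors. The non-TRIM24 tumors had Chst4 at 0 to 0.12 TPM and Madcam1 at 0.05 to 0.60 TPM at 138.0 to 1631.3 TPM of Glycam1. The summed level of the 14 lymph node and venule markers was 48.6 to 235.5 TPM in glands, 47.7 to 600.3 TPM in carcinosarcomas, 14.2 to 123.1 TPM in carcinomas and 21.1 to 134.6 TPM in non-TRIM24 tumors.

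The make-up of milk protein RNA also differed between libraries. Csn2, Csn1s1 and Csn1s2a together led in glands 133, 417_3 and 517_3, where Csn3 was 9.18% to 11.5% of the summed TPM of the 8 genes. In gland 392 Csn3 was 80.3% of it, and in carcinoma 273_5 it was 87.1%. The ratio of Csn3 to Csn2 was 14.4 in gland 392 and 22.8 in carcinoma 273_5, against 0.244 to 0.288 in the other glands, 0.418 to 1.33 in carcinosarcomas, 0.367 and 1.57 in carcinomas 3956 and 89, and 1.76 to 2.63 in non-TRIM24 tumors. Carcinoma 273_5 also had 212.1 TPM of Lalba beside 0.61 TPM of Wap and 0.57 TPM of Glycam1, so it had Csn3 and Lalba above every gland and Wap and Glycam1 near the values of carcinosarcoma 64. The 3 non-TRIM24 tumors differed 10.6- to 27.3-fold in level between 219 and FVB001, and Csn3 was 40.1% to 46.3% of the sum in all 3.

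**Figure D2:**
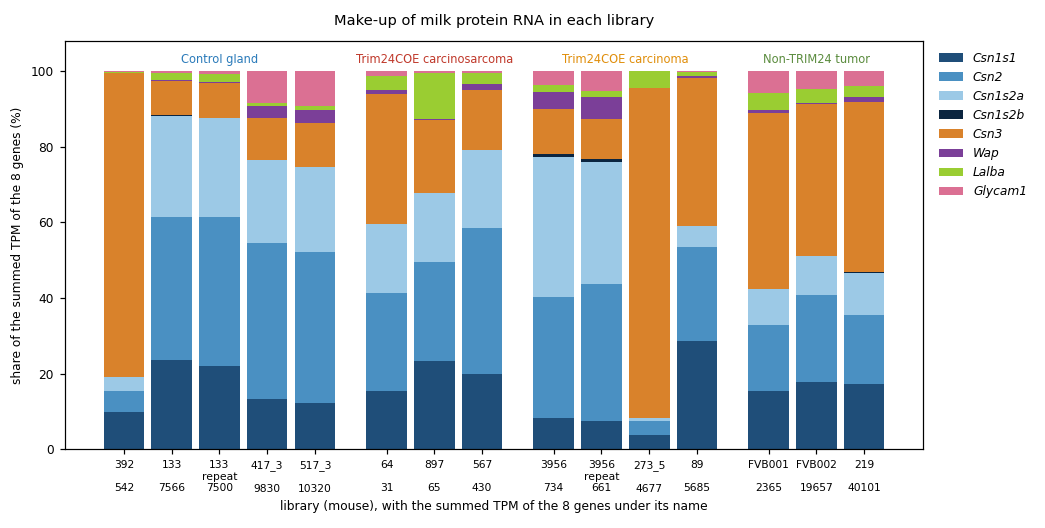
Share of each gene in the summed TPM of the 8 milk protein genes (percent, stacked bars from 0 to 100) in each library, with that sum under the name of the library. Csn3 (orange) fills 80.3% of the bar of gland 392 and 87.1% of that of carcinoma 273_5, and 40.1% to 46.3% of those of the 3 non-TRIM24 tumors.

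Repeat libraries gave the spread between libraries of the same mouse, each pair lying across both sequencing batches. Between the first and the repeat library of gland 133, the 8 genes changed by a factor of 0.883 (Csn1s2b) to 1.72 (Wap), and for carcinoma 3956 by a factor of 0.627 (Csn1s2b) to 1.31 (Glycam1). Glands 417_3 and 517_3 differed by less, with ratios of 0.962 to 1.23. Between glands 133 and 392 the ratios ran from 1.60 for Csn3 to 110 for Lalba. For 7 genes those 2 glands thus differed by more than the widest repeat ratio, the 1.72 of Wap in gland 133. Csn3, at 1.60, was under that ratio. It still differed by more than in its own repeats, with ratios of 0.999 for gland 133 and 0.813 for carcinoma 3956.

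The first comparison asked how the tumors labelled Trim24COE differ from control glands. All 8 genes had a lower mean log2(TPM + 1) in the 6 tumors than in the 4 glands. The median difference was -2.99 on that scale, against -0.04 over the 15196 genes tested. In plain TPM the mean of Csn3 was higher in tumors, at 1079.7 ± 1706.6 TPM (SD) against 854.1 ± 351.6 TPM in glands. None of the 8 passed an adjusted p of 0.05 in limma, and 2 passed an unadjusted p of 0.05. Of all genes tested, 17.1% passed the adjusted threshold in either direction, 9.13% lower in tumors, and 32.6% passed the unadjusted one. Glycam1 had the widest difference, -4.62 ± 1.59 (SE, limma adjusted p = 0.0675; exact permutation p = 0.0476), with means of 6.94 ± 10.8 TPM (SD, n = 6) in tumors and 457 ± 505 TPM (SD, n = 4) in glands. Csn1s2a followed at -3.64 ± 1.49 (limma adjusted p = 0.116; exact permutation p = 0.0762). The other 6 ranged from -3.35 ± 1.62 for Csn2 to -1.07 ± 1.38 for Lalba. Tumors and glands overlapped for every gene. All exact permutation tests were two-sided on the difference of mean log2(TPM + 1), and the smallest p that 6 against 4 mice allow is 0.00952.

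Gland 392 decided this count. Without it 3 of the 8 genes passed in limma, namely Glycam1 (-6.42, adjusted p = 0.00905), Csn1s2a (-5.32, adjusted p = 0.0153) and Csn2 (-5.06, adjusted p = 0.0353), where 6.72% of all genes tested passed lower in tumors. Without carcinoma 89, 1 gene passed, Csn1s1 (-4.03, limma adjusted p = 0.0399), where 11.4% of all genes tested passed lower in tumors. Gland 392 had more luminal and fat marker RNA than gland 133, with luminal sums of 1887.9 and 1149.6 TPM and adipocyte sums of 46213.7 and 34515.5 TPM, and had the highest skeletal muscle markers of the glands, with 1843.9 TPM summed over 6 genes against 20.4 to 353.7 TPM in the others. Their part in the result was not tested.

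Carcinosarcomas against glands was the only comparison in which milk protein genes passed in the fit to all mice. All 8 genes were lower than in glands, with a median difference of -5.04 (log2) against -0.12 over all genes tested, and 2 of 8 passed in limma, where 23.0% of all 15287 genes tested passed in either direction and 13.1% passed lower in carcinosarcomas. Csn3 fell by 5.15 ± 0.65 (SE; limma adjusted p = 0.00221), from 854 ± 352 TPM (SD, n = 4) in glands to 30.8 ± 33.1 TPM (SD, n = 3). Csn1s1 fell by 4.98 ± 1.34 (limma adjusted p = 0.0323), from 1106 ± 742 TPM to 35.4 ± 44.3 TPM. Csn3 did not overlap between the groups (exact permutation p = 0.0571, the smallest that 3 against 4 mice allow), and of all genes tested 21.6% were lower in carcinosarcomas with no overlap. Csn1s2b, at 0.13 TPM or less in every carcinosarcoma, passed the filter on low values only through 3 glands, so its difference of -2.17 ± 0.68 and its lack of overlap are a description only. Glycam1 (-5.68 ± 1.94), Csn2 (-5.20 ± 1.80) and Csn1s2a (-5.10 ± 1.73) had differences about as large as that of Csn3 with larger standard errors, and limma adjusted p-values of 0.0671 to 0.0715. Wap (-3.99 ± 1.94) and Lalba (-2.71 ± 1.42) had limma adjusted p-values of 0.173 and 0.203.

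Without gland 392, the 7 genes other than Csn1s2b passed lower in carcinosarcomas in limma, with adjusted p-values from 0.00306 (Csn3) to 0.0272 (Wap), where 12.2% of all genes tested passed in that direction. Csn1s2b passed too (limma adjusted p = 0.0136), but had entered that fit only through the glands. Csn3 passed in all 14 alternative fits, with differences of -5.97 to -4.69, and Csn1s1 passed in 7 of 14. Csn1s1 did not pass without gland 133, 417_3 or 517_3, without carcinosarcoma 64 or 897, without the filter on low values, or with glands 417_3 and 517_3 averaged as 1 sample. Luminal markers moved with these genes, since 9 of 11 fell (median -3.91) beside 13.1% of all genes, and their summed level was 328.8 to 1419.1 TPM in carcinosarcomas against 1149.6 to 5829.5 TPM in glands. Adipocyte markers were at 200.9 to 324.5 TPM against 1976.1 to 46213.7 TPM, with 3 of 10 passing. The part of these cell types in the differences of the milk protein genes was not tested in this comparison.

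**Figure D3:**
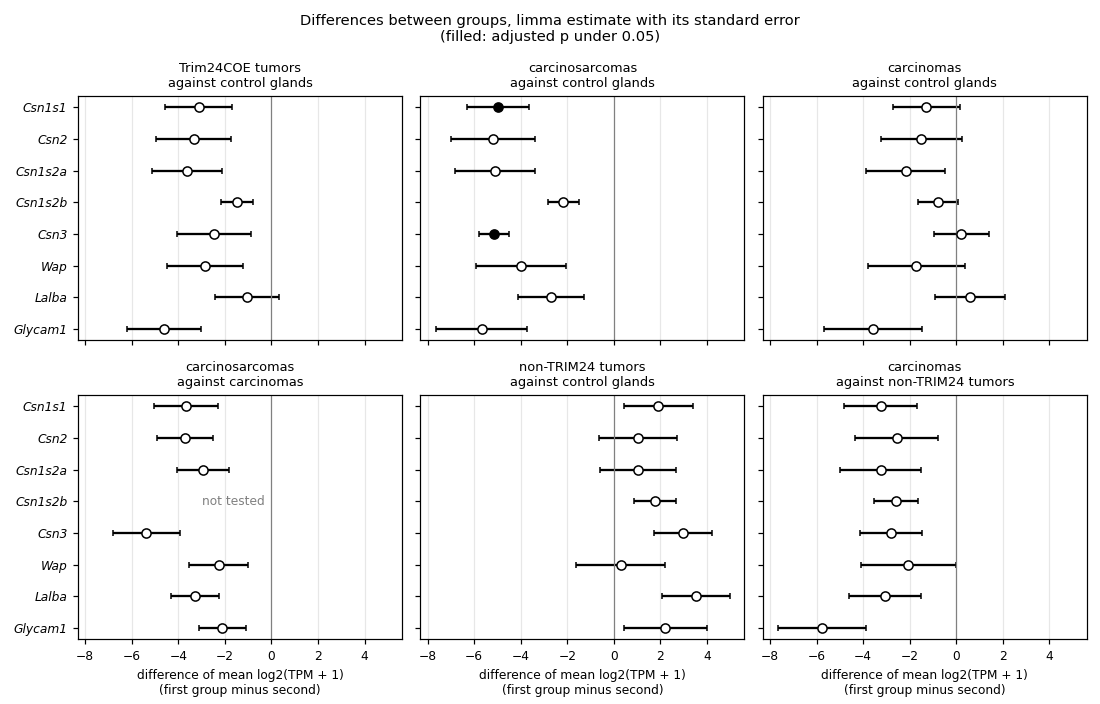
Difference of mean log2(TPM + 1) between groups for each gene (first group minus second), with the limma standard error as a bar, in 6 comparisons. Filled points passed an adjusted p of 0.05, and only Csn1s1 and Csn3 in carcinosarcomas against glands did. Csn1s2b was under the level filter in carcinosarcomas against carcinomas.

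Carcinomas labelled Trim24COE were not separated from glands. The median difference of the 8 genes was -1.39 (log2) against 0.02 over all genes tested, 6 were lower on average and 2 higher, and none passed in limma at an adjusted or at an unadjusted p of 0.05, where 3.5% of all 15479 genes tested passed the adjusted and 21.5% the unadjusted threshold. Glycam1 differed by -3.57 ± 2.10 (limma adjusted p = 0.379) and Csn1s2a by -2.17 ± 1.70 (limma adjusted p = 0.518). Csn3 differed by 0.22 ± 1.20 and Lalba by 0.58 ± 1.51, with means of 2129 ± 1995 TPM against 854 ± 352 TPM for Csn3. Among the 3 carcinomas Csn1s1 ranged over 27-fold and Csn3 over 47-fold, and differences of the size of these standard errors were not detectable with this number of mice. Without gland 392, Csn1s2a passed (-3.85, limma adjusted p = 0.0495), as did 1.33% of all genes tested in that direction, and the estimates of Csn3 and Lalba turned to -0.07 and -0.82.

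Between the 2 tumor types of the transgene, the 7 genes tested were all lower on average in carcinosarcomas, with a median difference of -3.28 (log2) against -0.10 over all genes tested. None passed an adjusted p of 0.05 in limma, where 0.698% of 14193 genes tested passed, and 5 passed lower at an unadjusted p of 0.05, as did 9.87% of all genes. Csn3 had the widest difference, -5.37 ± 1.46 (limma adjusted p = 0.199), followed by Csn2 (-3.70 ± 1.20), Csn1s1 (-3.69 ± 1.37), Lalba (-3.28 ± 1.05) and Csn1s2a (-2.93 ± 1.13), with limma adjusted p-values of 0.238 to 0.299. Csn2, Csn3 and Lalba did not overlap between the types, nor did the untested Csn1s2b, each with an exact permutation p of 0.1, the smallest that 3 against 3 mice allow, and 14.4% of all genes were lower in carcinosarcomas with no overlap. Carcinoma 3956 lay nearest to the carcinosarcomas for Csn1s1, Csn3 and Lalba, and carcinoma 273_5 for Csn2, Csn1s2a, Wap and Glycam1. Without 3956, Csn3 passed (-7.08, limma adjusted p = 0.0189), where 1.71% of all genes tested passed lower in carcinosarcomas. Luminal markers differed here as well, with 4 of 11 passing lower in carcinosarcomas (median -4.71).

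Non-TRIM24 tumors 219 and FVB002 had the highest summed milk protein RNA of the 15 libraries. All 8 genes were higher on average than in glands, by a median of 1.83 (log2), while the median over all 16775 genes tested was -0.27, yet none passed in limma, where 0.709% of all genes passed. At an unadjusted p of 0.05, 2 passed, as did 19.3% of all genes. These were Lalba, at 3.52 ± 1.45 (limma adjusted p = 0.216; 669 ± 531 TPM against 83.9 ± 59.5 TPM), and Csn3, at 2.97 ± 1.25 (limma adjusted p = 0.223; 9012 ± 8535 TPM against 854 ± 352 TPM). Csn1s1 differed by 1.90 ± 1.48, and Csn2, Csn1s2a and Wap by 1.05 ± 1.68, 1.03 ± 1.64 and 0.29 ± 1.91. Every gene overlapped between these groups. These tumors were all in the second batch, so the fit placed them against the glands through the repeat libraries of 1 gland and 1 carcinoma. Leaving out gland 392 turned the estimates of Csn2, Csn1s2a and Wap to -0.62, -0.61 and -1.30.

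Carcinomas labelled Trim24COE against non-TRIM24 tumors completed the comparisons. All 8 genes were lower on average in the carcinomas, with a median difference of -2.94 (log2), against 0.27 over all genes tested, and none passed in limma, where 5 of 16775 genes (0.0298%) did. At an unadjusted p of 0.05, 2 passed, as did 17.6% of all genes. Glycam1, at 12.9 ± 13.6 TPM (SD, n = 3) against 910 ± 748 TPM (SD, n = 3), differed by -5.78 ± 1.90 (limma adjusted p = 0.192) and was the only 1 of the 8 with no overlap, as 6.6% of all genes were lower in carcinomas with no overlap. Csn1s2b differed by -2.59 ± 0.95 (limma adjusted p = 0.217). The other 6 differed by -3.25 to -2.06 with standard errors of 1.32 to 2.03.

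The ratio of milk protein RNA to luminal epithelial RNA differed widely between libraries. Set against the summed TPM of 11 luminal markers (keratins, claudins, Epcam and others), the 8 genes summed to 0.287 times in gland 392, 1.77 and 1.81 times in 517_3 and 417_3, and 6.58 times in 133. The ratio was 0.0457, 0.0951 and 0.749 in carcinosarcomas 897, 64 and 567. Carcinoma 3956, with the highest luminal sum of the first libraries (7852.8 TPM), had a ratio of 0.0934, against 1.35 in 273_5 and 1.51 in 89. The non-TRIM24 tumors had ratios of 3.50 (FVB001), 5.41 (FVB002) and 6.31 (219), within the range of the glands. Tumor FVB001 had 66561.4 TPM of adipocyte markers, above every gland, and 676.5 TPM of luminal markers, below every gland. A covariate was then added to the fit of tumors labelled Trim24COE against glands. With the mean log2(TPM + 1) of the luminal markers as covariate, the differences lay closer to 0 for all 8 genes, and none passed. Csn3 came to -0.62 in place of -2.47, Csn2 to -1.79 in place of -3.35, Csn1s1 to -1.76 in place of -3.13 and Wap to -1.43 in place of -2.86. Csn1s2a came to -2.35, Csn1s2b to -0.80, Glycam1 to -3.33 and Lalba to 0.11 ± 1.29 in place of -1.07 ± 1.38. The covariate was then replaced by the mean log2(TPM + 1) of the adipocyte markers. The differences moved both ways, to -1.05 for Csn3, -2.54 for Csn1s1 and -5.51 for Wap. Glycam1 passed (-7.50 ± 1.76, limma adjusted p = 0.0312), as did 4.8% of all genes in that direction.

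**Figure D4:**
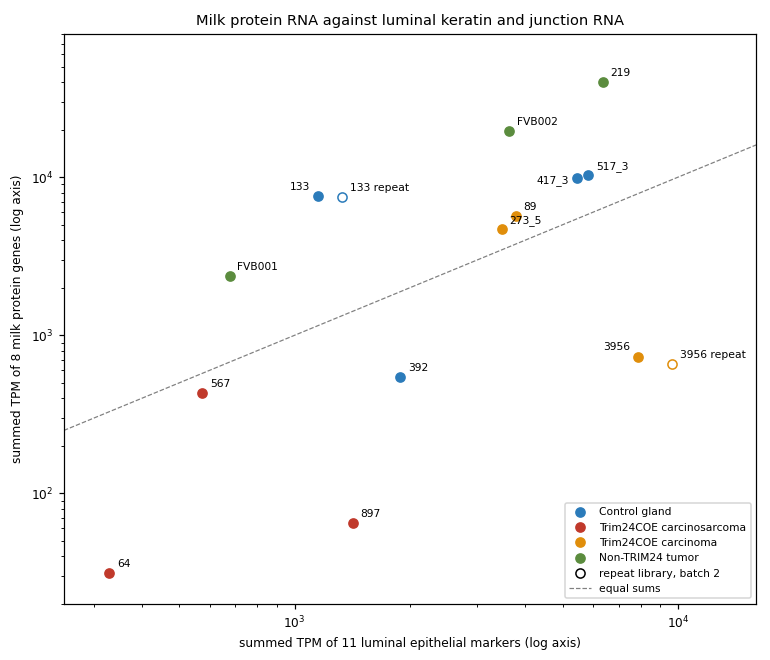
Summed TPM of the 8 milk protein genes against the summed TPM of 11 luminal epithelial markers in each library (both axes log), with a dashed line where the sums are equal and repeat libraries as open circles. Gland 392, all 3 carcinosarcomas and carcinoma 3956 with its repeat fall below the line and the other libraries above it, and carcinoma 3956 has 733.6 TPM of milk protein RNA at 7852.8 TPM of luminal markers.

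Genes of the prolactin pathway and its partners in alveolar cells were read in the same comparisons. Of 18 listed regulators, 12 fell and none rose in tumors labelled Trim24COE against glands, where 9.13% of all genes fell. In carcinosarcomas 12 fell, beside 13.1% of all genes, and in carcinomas 3 (Stat5a, Esr1, Pgr), beside 3.5% in either direction. None passed in non-TRIM24 tumors against glands, where 13 had an unadjusted p under 0.05 beside 19.3% of all genes, nor in either comparison between tumor groups. Prlr, the prolactin receptor, was at 50.3, 19.4, 84.4 and 45.5 TPM in glands 392, 133, 417_3 and 517_3, at 0.86, 0.40 and 1.90 TPM in carcinosarcomas 64, 897 and 567, at 0.15, 10.1 and 5.68 TPM in carcinomas 3956, 273_5 and 89, and at 3.07, 6.36 and 4.11 TPM in FVB001, FVB002 and 219. No tumor reached the lowest gland, and Prlr fell by 3.94 ± 0.66 in tumors labelled Trim24COE (limma adjusted p = 0.00304). In non-TRIM24 tumors the Prlr difference was -2.61 ± 0.73 (limma adjusted p = 0.110).

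Stat5a, which carries the prolactin signal to the nucleus, was at 26.4 to 81.5 TPM in glands and at 4.18 to 20.7 TPM in all 9 tumors, again with no overlap. It fell by 2.54 ± 0.40 in tumors labelled Trim24COE (limma adjusted p = 0.00227) and by 2.20 ± 0.47 in carcinomas alone (limma adjusted p = 0.0470). Elf5, an ETS factor of alveolar cells, was at 61.3, 127, 303.9 and 247.7 TPM in glands 392, 133, 417_3 and 517_3, at 0.80, 1.09 and 4.89 TPM in carcinosarcomas 64, 897 and 567, at 2.34, 79.3 and 88.1 TPM in carcinomas 3956, 273_5 and 89, and at 9.93, 92.5 and 131.5 TPM in FVB001, FVB002 and 219. It fell by 5.80 ± 0.63 in carcinosarcomas (limma adjusted p = 0.00143) and differed by -2.45 ± 1.15 in carcinomas (limma adjusted p = 0.270). Carcinoma 3956 had both the lowest Elf5 and the lowest summed milk protein level of the carcinomas, and carcinosarcoma 567 the highest of both among carcinosarcomas. Gland 392 had the lowest Stat5a and Elf5 of the 4 glands but more Prlr than glands 133 and 517_3. The steroid receptor genes Esr1 (-2.30 ± 0.23, limma adjusted p = 0.000298) and Pgr (-2.26 ± 0.34, limma adjusted p = 0.00192) fell in tumors labelled Trim24COE.

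**Figure D5:**
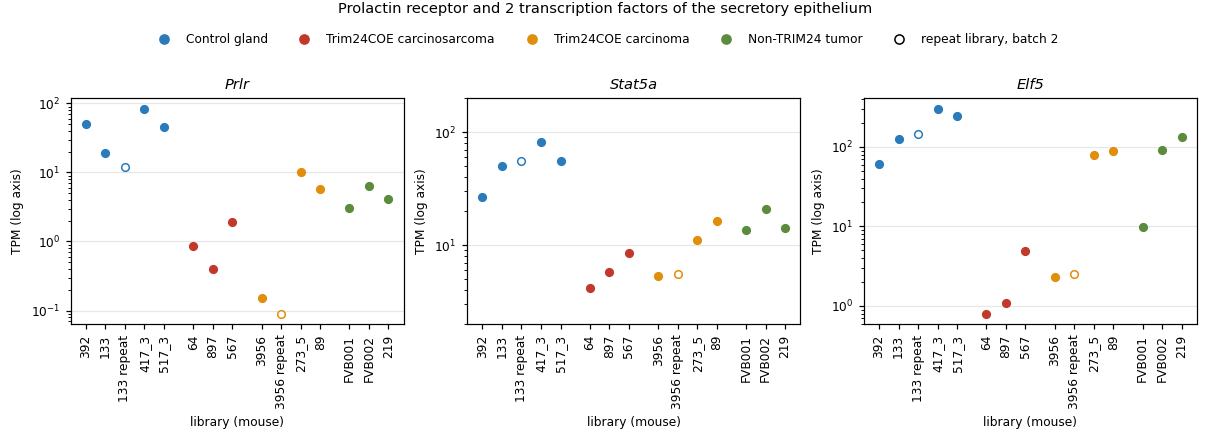
TPM (log axes) of Prlr, Stat5a and Elf5 in each library, coloured by group, with repeat libraries as open circles. Every gland is above every tumor for Prlr and Stat5a, whereas for Elf5 carcinomas 273_5 and 89 and non-TRIM24 tumors FVB002 and 219 reach the glands.

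The milk fat globule is coated and filled by another set of genes. Of 9 listed, 4 passed lower in tumors labelled Trim24COE against glands (9.13% of all genes did), 8 in carcinosarcomas (13.1% of all genes) and 1 in carcinomas (3.5% of all genes in either direction). Cd36, a fatty acid transporter that adipocytes also express, fell by 5.23 ± 0.58 (limma adjusted p = 0.00041), the mucin Muc15 by 5.20 ± 1.04 (limma adjusted p = 0.00784), and butyrophilin, Btn1a1, the main membrane protein of the globule, by 3.74 ± 0.84 (limma adjusted p = 0.0131). Muc1 fell by 3.14 ± 0.72 (limma adjusted p = 0.0139). Btn1a1 was at 22.1 to 156.4 TPM in glands, 0.50 to 2.10 TPM in carcinosarcomas, 5.45 to 23.4 TPM in carcinomas and 1.22 to 18.3 TPM in non-TRIM24 tumors, so tumor 219, with 7301.4 TPM of Csn2, had less Btn1a1 than any gland. None of the 9 passed in non-TRIM24 tumors against glands, where all 9 estimates were negative (median -0.67) and those of the 8 milk protein genes positive.

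Other proteins of whey did not move as 1 group. Of 14 listed, 13 were tested, and in tumors labelled Trim24COE against glands 3 fell (Folr1, Cel and Slc34a2) and 3 rose, where 17.1% of all genes passed in either direction. Spp1, which encodes osteopontin, rose by 5.75 ± 0.42 (limma adjusted p = 0.0001), Saa3, an acute-phase protein, by 4.41 ± 0.85 (limma adjusted p = 0.0063) and Lyz2, a lysozyme of macrophages, by 2.40 ± 0.48 (limma adjusted p = 0.0078). Cel, the bile salt-stimulated lipase of milk, fell by 3.50 ± 0.93 (limma adjusted p = 0.0266). In carcinosarcomas 8 fell and 3 rose, beside 23.0% of all genes in either direction, and in carcinomas 2 rose, beside 3.5%. In non-TRIM24 tumors Spp1 passed, at 5.32 ± 0.79 (limma adjusted p = 0.01), beside 0.709% of all genes. The 3 genes that rose are also made by macrophages and other stromal cells.

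Markers of other tissues were read in tumors labelled Trim24COE against glands, where 9.13% of all genes fell. Basal and myoepithelial markers fell for 4 of 9, among them Oxtr, the oxytocin receptor of the cells that eject milk (-3.99 ± 0.34, limma adjusted p = 0.000134), and adipocyte markers for 3 of 10. Luminal markers passed for 0 of 11, with Krt19 nearest (-2.50 ± 0.80, limma adjusted p = 0.054), although 1 had an unadjusted p under 0.05. Of the lymph node and venule markers 5 of 11 tested fell, of the salivary gland markers 1 of 3 (Prol1), and of the skeletal muscle markers 0 of 6, none of which had an unadjusted p under 0.05.

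Genes closest to the milk protein genes in pattern were ranked last. Over the 10 first libraries of the first batch, and among 16050 genes, Lao1 had the highest Pearson correlation with the mean log2(TPM + 1) of the 8 genes (r = 0.970). It was at 0.19, 4.51, 9.07 and 7.77 TPM in glands 392, 133, 417_3 and 517_3, at 0 to 0.12 TPM in carcinosarcomas and at 1.23 to 3.31 TPM in carcinomas. Lao1 encodes an L-amino acid oxidase found in mouse milk. In the non-TRIM24 tumors, not used for the ranking, it was at 10.8 TPM (219), 2.6 TPM (FVB002) and 0.45 TPM (FVB001). FVB002, at 19657.3 TPM summed over the 8 genes, thus had less Lao1 than gland 133, at 7566.2 TPM. Ccnjl, Tom1l1, Zfp939, Zfp282, Oxnad1, Mterf3, Tarsl2 and Sec14l2 had r from 0.936 to 0.914. Glands 417_3 and 517_3 carry weight in these values, and without them r was 0.944 for Lao1 and 0.843 to 0.917 for the others over 8 libraries. The points share libraries of unequal cell content, so these figures are a description only.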

How the data were processed

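Total RNA of mammary glands and tumors was sequenced from libraries that the study ascribes to an Illumina TrueSeq RNA kit. Per the study's methods, the authors trimmed reads with Trimmomatic, aligned them with STAR to GRCm38 and deposited TPM values estimated by RSEM with a GENCODE annotation, while the labels list FastQC, TopHat, Cufflinks, RSEM, DESeq and edgeR with mm10. Both deposited tables hold TPM per gene and library, 1 table for each sequencing batch, and genes were joined by identifier. For 859 genes the symbols differ between the tables, and those of the first were used.

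Here log2(TPM + 1) was fitted with limma 3.58.1 (R 4.3.3; lmFit, eBayes with a variance trend), and p-values were adjusted by Benjamini-Hochberg over all genes tested with a threshold of 0.05. A gene was tested where the number of libraries with a TPM of at least 1 matched or exceeded the size of the smaller group. Repeat libraries were left out of the comparisons inside the first batch. The non-TRIM24 tumors were compared in a fit to all 15 libraries, with a batch term and a block for mouse (correlation 0.951). A fold change on this scale understates the change of low genes. Two-sided exact permutation tests were run with scipy 1.17.1. The fits were tested on simulated data. Each mouse is 1 replicate, and because the labels do not say how the mice were related, p-values measure the spread between these samples.

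The 8 genes, the 9 other gene lists and the tests were chosen with earlier results of these data known. Named beside the 8 were Prlr, Stat5a and Elf5, up to 4 genes of each list with the smallest adjusted p in tumors labelled Trim24COE against glands, every gene annotated between the caseins, and the 10 genes closest in pattern, 1 of which is not reported here; other listed genes that passed are named only to complete a count of 5 or fewer, and a marker whose level bears on a result was chosen after its values were seen. Gene positions are from GENCODE M21, where Lalba and Glycam1 matched without the version of the identifier, and promoters from RefSeq. Alternatives covered the pseudocount, the filter, 2 rescalings, covariates, the use of repeat libraries and leaving out each mouse. Those that left out both FVB001 and FVB002, or averaged glands 417_3 and 517_3, were added after seeing the data.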

Additional observations from a re-analysis of the deposited data

Results flagged for a closer look

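Control gland 392 stood apart from the other 3 glands for 4 of the 8 genes on the log2(TPM + 1) scale, by Dixon's ratio of the gap to the range, with a critical value of 0.829 for 4 samples. The ratio was 0.899 for Csn1s1 (53.9 TPM against 1262.5 to 1795.8 TPM), 0.924 for Csn2 (30.3 TPM against 2844.0 to 4111.9 TPM), 0.972 for Csn1s2a (19.5 TPM against 2032.1 to 2321.0 TPM) and 0.887 for Lalba (1.29 TPM against 88.9 to 142.3 TPM). In the 6 tumors labelled Trim24COE, carcinoma 3956 stood apart for Csn1s2b with 7.15 TPM against 0.01 to 0.72 TPM in the others, a ratio of 0.745 against a critical value of 0.625. In all, 16 groups of values were examined and 5 stood apart, where chance gives about 1 in 20. The 4 genes that marked gland 392 are measured in the same library and are not independent.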

How the results depend on the processing

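Of 695 alternative values of single genes, 661 kept the direction and the side of the threshold, 15 passed it newly, 7 no longer passed it and 12 changed sign. Leaving out 1 mouse at a time, the number of the 8 genes past the threshold ran from 0 to 3 for tumors labelled Trim24COE against glands, from 1 to 8 for carcinosarcomas against glands (8 with Csn1s2b counted), from 0 to 1 for carcinomas against glands and for carcinosarcomas against carcinomas, and was 0 throughout in both comparisons with non-TRIM24 tumors. The adipocyte covariate gave 1 gene in the first, and no filter on low values, or glands 417_3 and 517_3 averaged as 1 sample, gave 1 in the second. Under the luminal covariate Lalba came to 0.11 in tumors labelled Trim24COE against glands, and with the libraries of 1 mouse taken as separate Csn1s2a came to -0.23 in non-TRIM24 tumors against glands. Over the fits without 1 mouse, Csn3 ran from -0.85 to 1.92 and Lalba from -0.82 to 1.59 in carcinomas against glands, and Csn2 from -0.62 to 2.31, Csn1s2a from -0.61 to 2.29 and Wap from -1.30 to 1.37 in non-TRIM24 tumors against glands. The cause of these changes was not tested. Median ratio scaling moved the median of all genes from -0.27 to -0.03 in non-TRIM24 tumors against glands, from 0.27 to -0.04 in carcinomas against non-TRIM24 tumors and from 0.02 to -0.08 in carcinomas against glands, and changed the sign of none of the 8 genes in any comparison. No paired analysis was possible because the groups share no replicate numbers. With no depth in TPM, values such as the 0.01 to 0.13 TPM of Csn1s2b in carcinosarcomas cannot be given a counting error.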
